A study of Mus musculus with 8 samples.

Results

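The 8 genes described here encode proteins that start, carry out or restrain apoptosis. They are the caspases Casp2, Casp6, Casp8 and Casp9, the apoptosome scaffold Apaf1, the mitochondrial protein Diablo and the inhibitors Xiap and Cflar. They were chosen by name, as a fixed list, and all 8 were found by Entrez identifier among the 36528 identifiers in the deposited tables. Polyadenylated RNA of primary mouse mesothelial cells from the omentum was sequenced in 8 libraries. Of these, 4 came from wild-type (WT) cells and 4 from cells with knockout of BAP1 (BAP1 KO), a nuclear deubiquitinase that acts on histone H2A. The labels give no age or sex, no Cre, no deleted exons and no treatment, and they leave unsaid whether the 4 libraries of each genotype are from different animals or cultures. Each p-value thus covers the library-to-library spread alone, and that spread may be technical.

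Caspases are proteases that are made as inactive precursors and cut one another and other proteins when a cell dies by apoptosis. In the mitochondrial pathway, cytochrome c leaves the mitochondria and binds Apaf1, which assembles into the apoptosome and activates Casp9, the initiator caspase of that pathway. Diablo, also called Smac, leaves the mitochondria as well and binds Xiap, which otherwise blocks active caspases. In the death receptor pathway, Casp8 is the initiator, and Cflar, a relative of Casp8 without protease activity, joins the same complex and limits its activation. Casp2 is activated on a platform called the PIDDosome, and Casp6 is an effector caspase that cuts nuclear lamins.

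The libraries held 67.1 to 84.9 M counts, and the 8 genes had between 997 and 10584 counts in each library. Levels below are CPM, counts per M of the library total after scaling by TMM, a factor computed for each library from the bulk of its genes. A gene was called where edgeR's quasi-likelihood test gave an adjusted p below 0.05 over the 16929 genes tested. Bap1 itself stood at 62.6 to 64.2 CPM in WT and at 52.0 to 54.0 CPM in BAP1 KO, 84.2% of the WT level. Counts per gene do not show whether those reads came from exons outside a deletion, so this level checks the genotype only in part. Markers of more than one cell type were present, and their calls stand beside 32.1% of all tested genes called lower and 29.0% called higher. Of 12 mesothelial markers none was at 0 and their summed level was 1404 to 1432 CPM in WT and 1462 to 1477 CPM in BAP1 KO, where 4 markers were higher, 5 lower and 3 were not called. Of 12 macrophage markers 7 were higher and 5 lower, none was at 0, and their sum was 13015 to 13303 CPM in WT and 15416 to 15908 CPM in BAP1 KO, or 4749 to 4826 and 4726 to 4748 CPM without Lyz2. All 8 fibroblast markers were lower, and their sum was 19859 to 21221 CPM in WT and 15814 to 16402 CPM in BAP1 KO. Of 6 adipocyte markers 5 were higher and 1 lower, with a sum of 513 to 547 CPM in WT and 751 to 799.6 CPM in BAP1 KO. Of 5 tested endothelial markers 4 were lower and 1 was not called, and the sum of all 6 was 29.0 to 29.9 CPM in WT and 18.5 to 19.6 CPM in BAP1 KO. Smooth muscle markers went both ways, with 3 higher, 2 lower and 3 not called of 8, at 12262 to 12742 CPM in WT and 12488 to 12682 CPM in BAP1 KO. Of 5 tested lymphocyte markers 2 were higher, 1 lower and 2 not called. The sum of all 6 was 5.05 to 5.17 CPM in WT and 3.16 to 3.55 CPM in BAP1 KO. The lower marker, Cd4, fell from 3.27 to 1.14 CPM. Erythroid markers summed to 1.05 to 1.48 CPM in WT and 3.02 to 3.18 CPM in BAP1 KO. Alas2, at 1.11 and 3.09 CPM, was the only 1 of these 3 that was tested, and it was called higher. The part of these cells in the changes described next was not tested, and fewer cells of a type cannot be told apart from less RNA per cell.

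Of the 8 genes, 4 were lower in BAP1 KO, 1 was higher and 3 were not called. Casp2 and Casp6 had the largest changes, at 68.8% and 74.4% of their WT level, while Casp8 and Apaf1 were at 88.1% and 90.0%. Cflar rose to 110.4%. Across all tested genes 61.1% were called, 32.1% as lower and 29.0% as higher, so that 5 called genes of 8 is close to the share among all genes. For 7 of the 8 genes no library of one genotype reached into the range of the other, against 53.8% of all tested genes. The median log2 fold change of the 8 genes was -0.06, and that of all tested genes was -0.0046. The plot of CPM by library shows all 64 values.

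**Figure D1:**
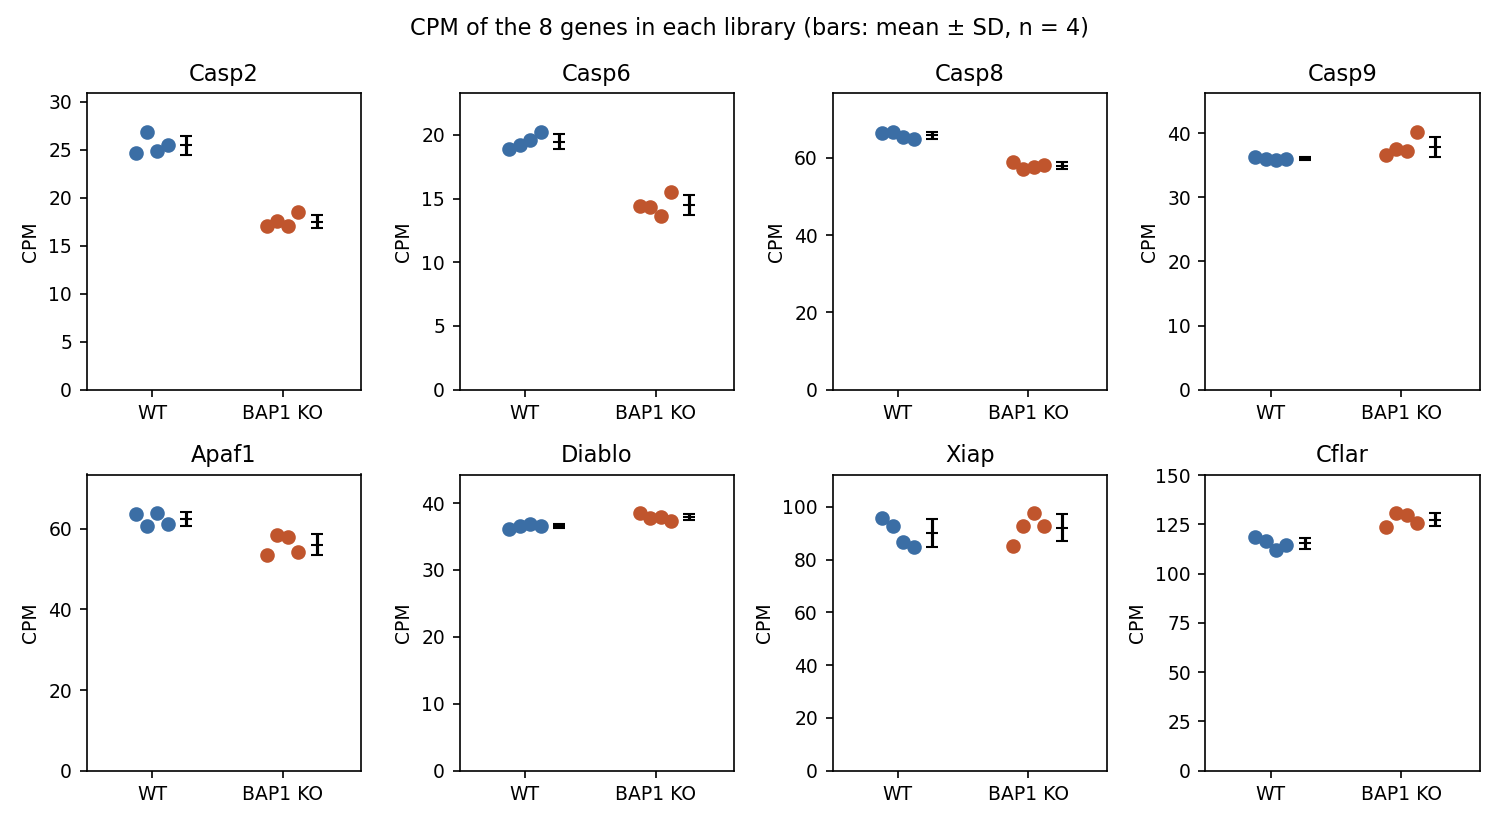
CPM of the 8 genes (vertical axes, each starting at 0) in the 4 WT and 4 BAP1 KO libraries, each point 1 library, with the mean and SD of each genotype beside the points. Casp2 and Casp6 are lower in every BAP1 KO library than in every WT library, and Xiap is the only one of the 8 genes whose genotypes overlap.

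The promoter windows of the 4 genes that were lower are shown because they differ widely in CpG content although the genes moved in one direction. Each window covers 250 bases before and 50 bases after the start that RefSeq gives on GRCm38.p6, written 5′ to 3′ on the strand of the gene. Capitals mark matches on either strand to GGGCGG, the letters bound by SP1, or to a motif of NRF1. NRF1 is a factor of housekeeping and mitochondrial genes. Its motif was searched with a position open to any letter, and neither match in the Casp2 window is a palindrome.
Casp2, chr6:42264735-42265034, plus strand: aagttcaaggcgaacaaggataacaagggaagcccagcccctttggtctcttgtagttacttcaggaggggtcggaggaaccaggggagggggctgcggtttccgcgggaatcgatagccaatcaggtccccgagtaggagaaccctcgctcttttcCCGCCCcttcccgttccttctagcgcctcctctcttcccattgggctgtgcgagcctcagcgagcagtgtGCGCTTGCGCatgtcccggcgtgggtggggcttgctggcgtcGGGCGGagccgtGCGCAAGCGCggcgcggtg
Casp6, chr3:129901165-129901464, plus strand: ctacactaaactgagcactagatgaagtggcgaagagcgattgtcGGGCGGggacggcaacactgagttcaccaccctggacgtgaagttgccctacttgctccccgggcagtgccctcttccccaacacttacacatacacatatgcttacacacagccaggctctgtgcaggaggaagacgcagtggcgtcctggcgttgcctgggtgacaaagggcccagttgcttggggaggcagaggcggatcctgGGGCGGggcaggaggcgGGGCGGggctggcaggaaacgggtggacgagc
Apaf1, chr10:91082694-91082993, minus strand: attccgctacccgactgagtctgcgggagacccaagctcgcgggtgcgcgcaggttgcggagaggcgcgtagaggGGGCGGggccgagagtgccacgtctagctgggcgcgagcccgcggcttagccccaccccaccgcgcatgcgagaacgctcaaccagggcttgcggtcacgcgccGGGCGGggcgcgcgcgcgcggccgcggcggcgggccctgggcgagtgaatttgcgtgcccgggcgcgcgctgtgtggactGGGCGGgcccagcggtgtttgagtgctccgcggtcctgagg
Casp8, chr1:58802252-58802551, plus strand: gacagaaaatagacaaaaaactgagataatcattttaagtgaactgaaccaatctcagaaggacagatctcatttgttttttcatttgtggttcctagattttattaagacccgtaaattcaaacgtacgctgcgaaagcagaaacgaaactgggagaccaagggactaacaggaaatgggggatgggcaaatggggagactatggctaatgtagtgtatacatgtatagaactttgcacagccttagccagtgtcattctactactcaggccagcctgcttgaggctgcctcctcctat

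The Apaf1 window held 46 CpG dinucleotides, the Casp2 window 26, the Casp6 window 16 and the Casp8 window 5, against a median of 7 over the 32851 windows of this length in the table. The Casp8 window lies inside the RefSeq gene span, since the table uses a start downstream of the gene's first base. The Casp2 window had 2 matches to the NRF1 motif, which begin at positions -23 and 32, counted from 1 at the start and from -1 before it. This motif occurs in 4.60% of all windows, and none of the windows of the other 7 genes held it. Matches to GGGCGG, found in 35.7% of all windows, were present for 6 of the 8 genes and absent from the windows of Casp8 and Cflar. The letters ATGGCGG, a core bound by YY1, a DNA-binding partner of BAP1 complexes, were in none of the 10 windows of the 8 genes (Xiap has 3) and in 4.06% of all windows. CCGGAAG, bound by ETS factors, was in the Diablo window alone and in 8.86% of all windows. No match overlapped another. A match describes letters in these windows and is no measure of binding.

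Casp2 (Entrez 12366; GRCm38 chromosome 6, 42264902 to 42282508), the initiator caspase of the PIDDosome, had the largest change. It stood at 24.6, 26.9, 24.9 and 25.5 CPM in the WT libraries and at 17.0, 17.6, 17.0 and 18.5 CPM in the BAP1 KO libraries. All BAP1 KO libraries were below all WT libraries, with a gap far wider than the spread within either genotype. The means were 25.5 ± 0.98 and 17.5 ± 0.69 CPM (SD, n = 4), a log2 fold change of -0.54 ± 0.04 (SE; edgeR adjusted p = 4.8e-13). Among all tested genes, 17.2% had a larger change in size.

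Casp6 (Entrez 12368; chromosome 3, 129901415 to 129914112), the effector caspase of lamins, fell too. Its WT libraries were at 18.9, 19.2, 19.6 and 20.2 CPM and its BAP1 KO libraries at 14.4, 14.4, 13.6 and 15.5 CPM. The genotypes were again fully separated, and the BAP1 KO libraries varied more, with a coefficient of variation of 5.40% against 2.96% in WT. The log2 fold change was -0.43 ± 0.04 (SE; edgeR adjusted p = 6.3e-10), and 23.1% of all tested genes changed by more.

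Casp8 (Entrez 12370; chromosome 1, 58795233 to 58847503), the initiator of the death receptor pathway, was at 66.4, 66.7, 65.4 and 64.9 CPM in WT and at 59.0, 57.2, 57.6 and 58.2 CPM in BAP1 KO. Both genotypes were narrow, with coefficients of variation of 1.28% and 1.38%, and they did not overlap. The log2 fold change was -0.18 ± 0.03 (SE; edgeR adjusted p = 5.1e-07), a size that 50.3% of all tested genes exceeded.

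Cflar (Entrez 12633; chromosome 1, 58711311 to 58758884), the inactive relative that restrains Casp8, was the only one of the 8 genes called higher. Its libraries were at 118.6, 116.8, 112.2 and 114.4 CPM in WT and at 123.4, 130.7, 129.8 and 125.8 CPM in BAP1 KO. Every BAP1 KO library was above every WT library. The log2 fold change was 0.14 ± 0.03 (SE; edgeR adjusted p = 1.1e-05), and 58.4% of all tested genes changed by more.

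Apaf1 (Entrez 11783; chromosome 10, 90989311 to 91082743), the scaffold of the apoptosome, was at 63.7, 60.7, 63.9 and 61.1 CPM in WT and at 53.6, 58.5, 58.0 and 54.3 CPM in BAP1 KO. The highest BAP1 KO library, at 58.5 CPM, was below the lowest WT library, at 60.7 CPM. The log2 fold change was -0.15 ± 0.03 (SE; edgeR adjusted p = 9.5e-05), and 56.6% of all tested genes changed by more.

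Casp9 (Entrez 12371; chromosome 4, 141793612 to 141815978), which the apoptosome activates, was not called. Its WT libraries lay close together at 36.4, 36.0, 35.9 and 36.0 CPM, and its BAP1 KO libraries were at 36.5, 37.6, 37.2 and 40.2 CPM. All BAP1 KO libraries were above the WT libraries, the lowest of them by a small margin. The log2 fold change was 0.071 ± 0.03 (SE; edgeR adjusted p = 0.062). The gene passed the threshold with RLE factors (0.080, edgeR adjusted p = 0.034), with DESeq2 (0.080, adjusted p = 0.039), with the whole GC and length trend removed (0.13, edgeR adjusted p = 0.00014) and without BAP1 KO replicate 1 (0.087, edgeR adjusted p = 0.032), and over the alternatives that test for any change the adjusted p ran from 0.00014 to 0.27. Its exons overlap those of Cela2a and Ctrc on the opposite strand over 94 bp each.

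Diablo (Entrez 66593; chromosome 5, 123511330 to 123524164), which frees caspases from Xiap, was at 36.1, 36.5, 36.9 and 36.6 CPM in WT and at 38.5, 37.8, 38.0 and 37.4 CPM in BAP1 KO. The BAP1 KO libraries were higher without overlap, by 3.75% of the WT mean. This difference was not called, with a log2 fold change of 0.053 ± 0.03 (SE; edgeR adjusted p = 0.13). The kit does not mark the strand, and 1326 bp of the Diablo exons overlap B3gnt4 on the opposite strand and 1193 bp overlap the model Gm49027 on the same strand, so reads of these genes cannot be told apart there.

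Xiap (Entrez 11798; chromosome X, 42059613 to 42109664), the direct inhibitor of caspases, had the widest spread. Its libraries were at 95.8, 92.8, 86.7 and 84.6 CPM in WT and at 85.3, 92.6, 97.6 and 92.8 CPM in BAP1 KO. The genotypes overlapped almost fully, and the log2 fold change was 0.033 ± 0.04 (SE; edgeR adjusted p = 0.52). The coefficient of variation within a genotype was 5.81% in WT and 5.53% in BAP1 KO, although counting alone gives 1.21%. Its transcript is poor in G and C, at 36.8%, which only 1.0% of the tested genes undercut. Once trends of counts on GC and length had been taken out, the standard error of its fold change went from 0.042 to 0.020. The errors of the other genes fell too, but less, as for Apaf1 (0.031 to 0.025) and Casp2 (0.040 to 0.037). Whether the GC content of Xiap accounts for its spread was not tested.

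By an exact two-sided permutation test of CPM, p was 0.029 (4 against 4 libraries allow none smaller) for each of the 7 genes without overlap, Casp9 and Diablo included, and an exact p of 0.571 for Xiap. None of the 8 genes passed a test against a 1.5-fold change (edgeR, 0 of 8 also at an unadjusted p of 0.05), the only tool run against that size. The estimates of all 8 genes were themselves smaller than 1.5-fold, so this result says little beyond their size.

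The calls of Casp8 and Apaf1 depended on how a trend with GC content and length was removed. Removal of the whole trend raised the median log2 fold change of all tested genes by 0.078 and turned the share of higher genes among all called from 47.5% to 61.9%. Casp8 and Apaf1 were then at -0.016 and -0.018 (edgeR adjusted p = 0.54 and 0.51), and Casp9, Diablo and Xiap were called higher at 0.13, 0.12 and 0.11. With the median trend of each library kept at 0, which retains the TMM scale and was chosen after seeing the data, the calls of all 8 genes were as without removal. Casp8 was then at -0.096 ± 0.02 and Apaf1 at -0.098 ± 0.02 (SE; edgeR adjusted p = 0.00032 and 0.00051). Casp2, at -0.48 and -0.39, Casp6, at -0.40 and -0.32, and Cflar, at 0.17 and 0.25, were called in both forms. The plot of log2 fold changes shows the 3 fits side by side.

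**Figure D2:**
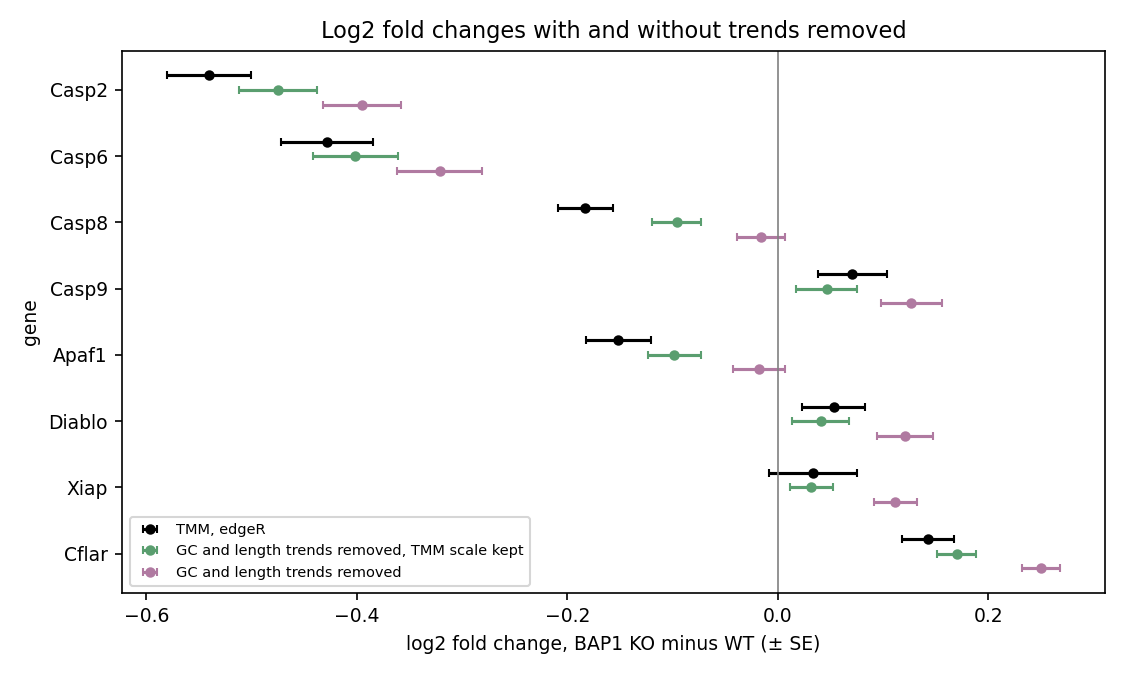
Log2 fold change of each of the 8 genes, BAP1 KO minus WT (horizontal axis, bars are ± SE), with TMM scaling (black), with GC and length trends removed on the TMM scale (green) and with the whole trend removed (purple). Casp2 and Casp6 lie left of 0 in the 3 fits and Cflar right of 0, while Casp8 and Apaf1 move to -0.016 and -0.018 with the whole trend removed.

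Ratios of a pair of genes within a library do not depend on the scaling factors. Cflar had 1.79, 1.75, 1.72 and 1.76 counts per Casp8 count in WT and 2.09, 2.28, 2.26 and 2.16 in BAP1 KO. The ratio of the restraining protein's transcript to that of the initiator was thus higher in every BAP1 KO library, with a log2 difference of 0.32 ± 0.03 (SE, n = 4 per genotype, exact permutation p = 0.029, adjusted over 3 ratios p = 0.044). Apaf1 had 1.75, 1.69, 1.78 and 1.70 counts per Casp9 count in WT and 1.47, 1.56, 1.56 and 1.35 in BAP1 KO. The scaffold was lower relative to its caspase without overlap, with a log2 difference of -0.22 ± 0.05 (SE, exact permutation p = 0.029, adjusted p = 0.044). In each of these pairs the single genes were already separated by genotype in opposite directions. The separation of the ratios and their exact p follow from that and are no further evidence. These ratios are not free of the trend with GC content and length. As differences of the fitted fold changes with that trend removed, in either form, Apaf1 to Casp9 was at -0.14 and Cflar to Casp8 at 0.27, values given without a test.

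Diablo had 0.377 to 0.433 counts per Xiap count in WT and 0.389 to 0.452 in BAP1 KO. The genotypes overlapped in this ratio of antagonist to inhibitor, with a log2 difference of 0.02 ± 0.07 (SE, exact permutation p = 0.8, the same adjusted). A ratio shows unequal change of a pair and not which of the genes changed.

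**Figure D3:**
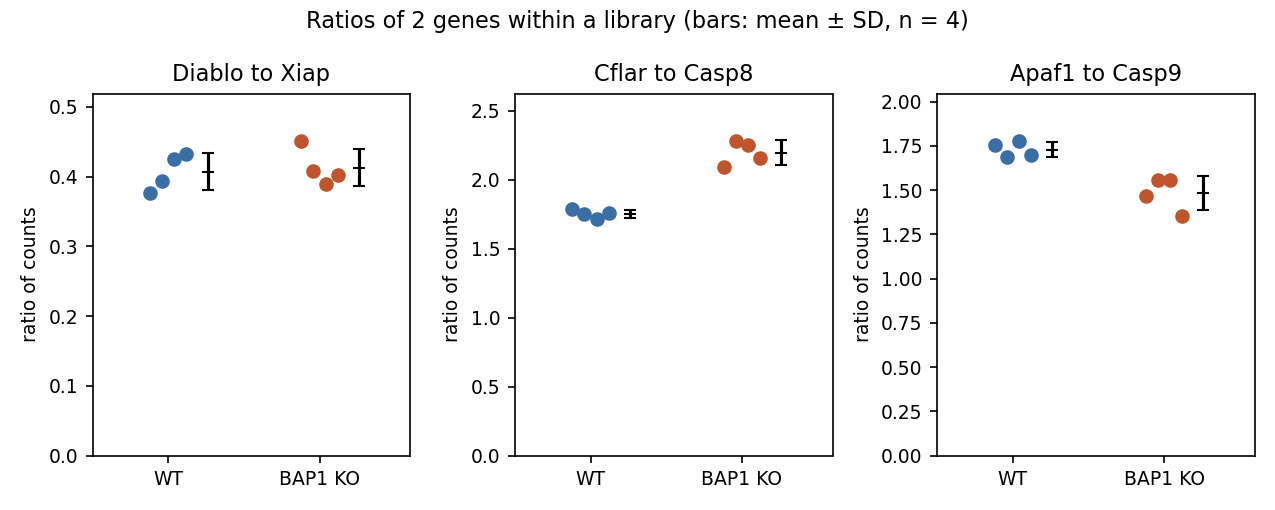
Ratio of the counts of 2 genes within each library (vertical axes start at 0; each point is 1 library, bars are mean ± SD, n = 4). The ratio of Cflar to Casp8 is 2.09 to 2.28 in BAP1 KO, above all WT libraries, and that of Apaf1 to Casp9 is 1.35 to 1.56, below all WT libraries.

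Levels of different genes were compared per length, in the authors' size-factor-adjusted RPKM. In WT, Casp8 was highest at 21.4 ± 0.26 (SD, n = 4), followed by Cflar at 13.7 ± 0.33 and Casp6 at 13.2 ± 0.40, which overlapped each other. Xiap at 11.9 ± 0.68 came next, and Apaf1 at 9.39, Diablo at 9.27 and Casp9 at 9.13 overlapped in their libraries. Casp2 was lowest at 6.54 ± 0.25.

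In BAP1 KO the order differed. Casp8 was still first at 19.0 ± 0.31 and Cflar second at 15.2 ± 0.38 (SD, n = 4), now without overlap with Casp6. Casp6, at 9.91 ± 0.53, was below Xiap, at 12.2 ± 0.65, and overlapped Diablo at 9.70 and Casp9 at 9.67. Apaf1, at 8.51 ± 0.36, was below every library of Diablo and Casp9, with which it overlapped in WT. Casp2 remained lowest at 4.54 ± 0.17. These levels rest on the authors' gene lengths.

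**Figure D4:**
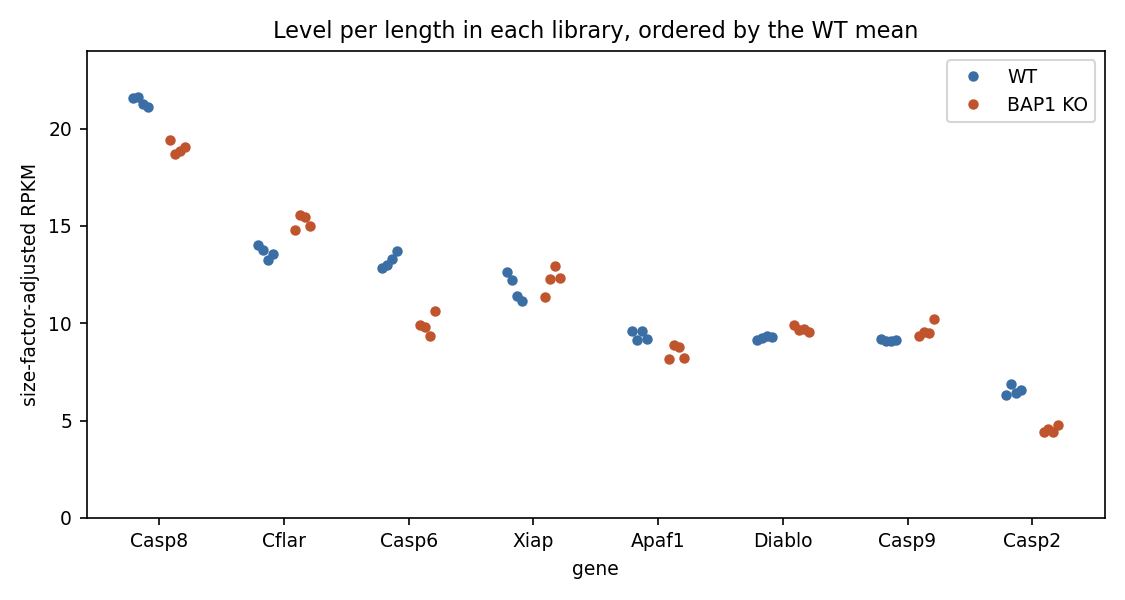
Size-factor-adjusted RPKM (vertical axis) of the 8 genes in each WT and BAP1 KO library, each point 1 library, ordered by the WT mean. Casp6 drops from the level of Cflar in WT to that of Diablo and Casp9 in BAP1 KO, and Casp2 is lowest in both genotypes.

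The genes next to the 8 were read in the same fit, as the nearest tested protein-coding gene on either side in RefSeq, a choice made after seeing the data. Both neighbours of Casp2 were lower in BAP1 KO. Gstk1, a glutathione transferase 14460 bp away, fell from 7.76 to 1.74 CPM (-2.15 ± 0.09, SE), and Clcn1, a chloride channel 2342 bp away, from 1.14 to 0.667 CPM (-0.76 ± 0.17). Both neighbours of Casp6 were lower as well, and by more than Casp6. Pla2g12a, a secreted phospholipase 5589 bp away, fell from 14.8 to 9.68 CPM (-0.61 ± 0.05), and Mcub, a subunit of the mitochondrial calcium uniporter 847 bp away, from 28.2 to 17.2 CPM (-0.71 ± 0.04).

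Ikbip, whose start lies against that of Apaf1 on the opposite strand, fell from 75.5 to 57.2 CPM (-0.40 ± 0.03, SE), a larger change than that of Apaf1 at -0.15. Anks1b, on the other side of Apaf1 and 16010 bp away, was called in the opposite direction, from 0.164 to 0.305 CPM (0.87 ± 0.30). Casp8 and Cflar are each other's neighbours, 36348 bp apart on the same strand, and were called in opposite directions. Vps33a, next to Diablo, rose from 89.9 to 114.6 CPM (0.35 ± 0.02), and B3gnt4, which overlaps Diablo, from 11.2 to 12.2 CPM (0.12 ± 0.05). Dnajc16, next to Casp9, rose by 0.11 ± 0.03. Thoc2 and Stag2, beside Xiap, were not called, at -0.038 ± 0.03 and -0.064 ± 0.07, and neither were Cela2a beside Casp9, Gm28802 beside Casp8 and Flacc1 beside Cflar. With 61.1% of all tested genes called, a called neighbour is common, and no test of neighbours was made.

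**Figure D5:**
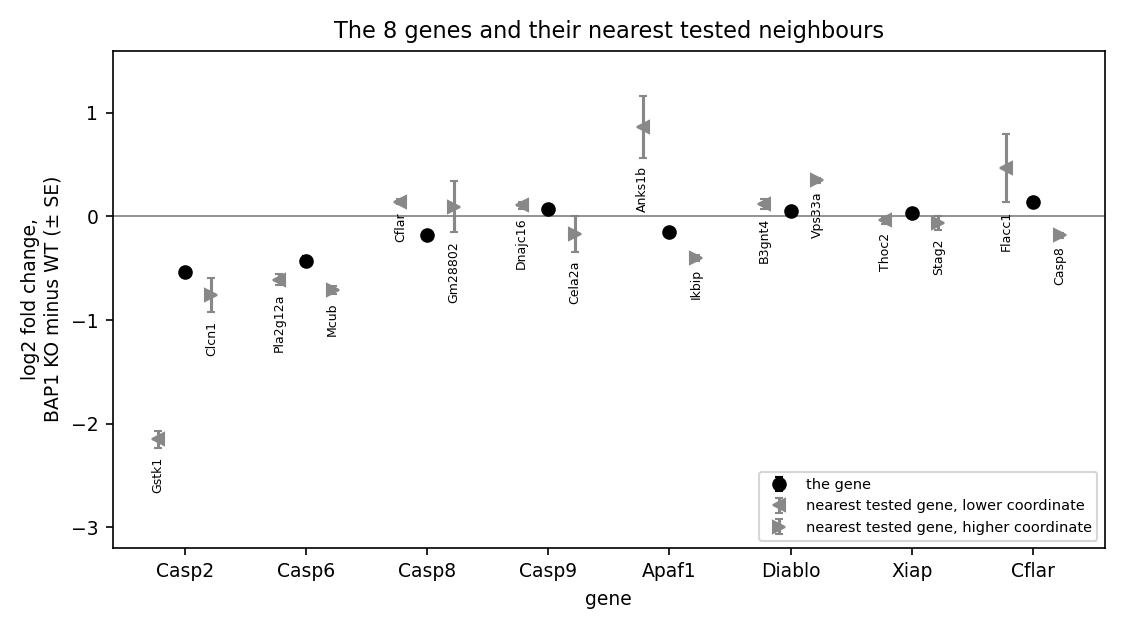
Log2 fold change, BAP1 KO minus WT (vertical axis, bars are ± SE), of each of the 8 genes (black) and of the nearest tested protein-coding gene on either side (grey, named). Gstk1 and Clcn1 beside Casp2, and Pla2g12a and Mcub beside Casp6, lie below 0 with the gene between them.

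The genes with the most similar profiles were found as the smallest root mean square difference in log2 CPM over the 8 libraries, each profile centred on its mean, among 10577 named genes with a mean of at least 5 CPM. For Casp2 these were Lmnb1, which encodes a nuclear lamin (difference 0.030, log2 fold change -0.52), and Fhl1 (0.035, -0.56). For Casp6 they were Tmem101 (0.030, -0.47) and Stambpl1, a deubiquitinase (0.032, -0.38). Nop10 and Eif2ak3, a kinase of the unfolded protein response, were nearest to Casp8, and Golga3 and Xpot to Cflar. Smarce1, a chromatin remodelling subunit, and Cdk17 were nearest to Apaf1. Zfp207 and Supt7l were nearest to Casp9, Sec61a1 and Gorasp2 to Diablo, and Naa50 and Ebag9 to Xiap. A profile of this kind holds the difference between genotypes as well as the spread within them.

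Other genes of the apoptotic machinery were read from 5 lists by role, with 40 of 42 genes tested. Of these, 18 were lower, 11 higher and 11 not called, with a median log2 fold change of -0.08. The share called, 29 of 40, stands beside 61.1% of all tested genes. Among all tested genes 32.1% were lower and 29.0% higher, shares that stand beside the counts of each list below. Fasl and Tnfrsf25 had too few counts to be tested.

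The largest change of a single gene in these lists was in the list of genes around Casp2 and the apoptosome. Nol3, also called ARC, an inhibitor of caspase activation, fell from 10.7 ± 0.71 to 4.58 ± 0.30 CPM (SD, n = 4), a log2 fold change of -1.22 ± 0.06 (SE; edgeR adjusted p = 7.7e-17). Of its 3176 exonic bp, 1531 overlap 4931428F04Rik on the opposite strand. Cradd (RAIDD), the adaptor that links Casp2 to the PIDDosome, fell from 8.26 to 6.37 CPM (-0.37 ± 0.06), and Apip (-0.12 ± 0.04) and Aven (-0.12 ± 0.05), 2 proteins that bind or restrain Apaf1, were called lower too. Pidd1, the core of the PIDDosome, was at 7.47 and 7.28 CPM and Bfar at 52.3 and 51.7 CPM (edgeR adjusted p = 0.61 and 0.60). Bfar was called higher with the GC and length trend removed, at 0.14 with the whole trend removed (edgeR adjusted p = 1.4e-06) and at 0.060 on the TMM scale (edgeR adjusted p = 0.027). In this list 4 of 6 genes were lower and 0 higher (edgeR), with a median of -0.12, against 32.1% lower and 29.0% higher of all tested genes. The count of higher genes was 0 too at an unadjusted p of 0.05, by DESeq2 and by limma-voom. Of the lower genes, Aven and Apip overlapped between genotypes in CPM. Aven lost its call under DESeq2 and RLE scaling and without WT replicate 3 or 4 or BAP1 KO replicate 1, 3 or 4 (-0.12 to -0.087). It was not called with GC and length trends removed, at 0.028 with the whole trend removed and at -0.052 on the TMM scale (edgeR adjusted p = 0.31 on that scale). Apip lost its call with the whole trend removed (-0.045) and without WT replicate 1 (-0.11) or BAP1 KO replicate 4 (-0.094). Over the alternatives other than the test against a 1.5-fold change, the adjusted p of Aven ran from 0.011 to 0.59.

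In the list of effectors and caspase substrates, 6 of 8 genes were lower, 1 higher and 1 not called, with a median of -0.29. Of all tested genes 32.1% were lower and 29.0% higher. Parp1, a DNA repair enzyme cut during apoptosis, fell from 106.9 to 88.4 CPM (-0.28 ± 0.02, SE). Dffa and Dffb, the inhibitor and the nuclease that cuts chromatin, fell by 0.30 ± 0.05 and 0.50 ± 0.11, Dffb from 2.05 CPM. Lmna, a lamin that Casp6 cuts, rose from 418.8 to 511.9 CPM (0.29 ± 0.03), opposite in direction to the caspase. Acin1 was at 90.1 and 93.6 CPM (edgeR adjusted p = 0.057). It was called higher with RLE factors, with DESeq2 and without BAP1 KO replicate 3. The same held with the whole GC and length trend removed (0.081, edgeR adjusted p = 0.00038). Rock1, whose genotypes overlapped in CPM, was called lower at -0.085 ± 0.03, but higher, at 0.048, with the whole GC and length trend removed. It lost its call with DESeq2 (-0.076) and without WT replicate 1 or 2 or BAP1 KO replicate 1, 2 or 4 (-0.084 to -0.055). With GC and length trends removed on the TMM scale it was not called either (-0.033, edgeR adjusted p = 0.17).

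Inhibitors of apoptosis other than Xiap, the IAP family, split into 4 higher, 4 lower and 1 not called of 9, with a median of -0.10. Birc6, a very large IAP, rose from 114.9 to 142.1 CPM (0.31 ± 0.03, SE). Birc2 and Birc3, which act at the tumour necrosis factor receptor, rose by 0.27 ± 0.04 and 0.19 ± 0.04, and Birc5, survivin, a protein of mitosis, fell from 26.7 to 22.4 CPM (-0.25 ± 0.04). Birc7 fell by 0.27 ± 0.06. The Naip genes are near-identical copies, so that reads counted as unique are uncertain. Naip1 was called higher and Naip2 and Naip6 lower, with Naip5 not called. The call of Naip1 was lost with all libraries kept under DESeq2 (0.36, adjusted p = 0.055) and limma-voom (0.36, adjusted p = 0.054). Without 1 library it was lost for any of WT replicates 1 to 3 and BAP1 KO replicates 2 to 4 (0.27 to 0.35), and that of Naip2 for WT replicate 1 and BAP1 KO replicates 1 and 2 (-0.090 to -0.075). Naip2 also lost its call with the whole GC and length trend removed (0.052, edgeR adjusted p = 0.14) and on the TMM scale (-0.028, edgeR adjusted p = 0.43).

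Of 12 tested death receptor genes 4 were higher, 3 lower and 5 not called, with a median of 0.02. The receptor Fas fell to 76.9% of its WT level (-0.38 ± 0.04, SE), and the ligand Tnf rose from 23.8 to 32.6 CPM (0.46 ± 0.04). Traf2 and Ripk1, proteins of the Tnf receptor complex, rose by 0.20 ± 0.04 and 0.11 ± 0.03, and Tnfrsf21 by 0.13 ± 0.03. Tnfsf10, the ligand Trail, fell from 0.45 to 0.248 CPM (-0.86 ± 0.25). Tradd was called lower at -0.10 ± 0.04, a call lost under DESeq2 and RLE scaling and without WT replicate 2, 3 or 4 or BAP1 KO replicate 2 or 3 (-0.10 to -0.063). Fadd, which brings Casp8 to the receptors, was at 16.5 and 17.5 CPM (edgeR adjusted p = 0.09). It was called higher with the whole GC and length trend removed (0.17, edgeR adjusted p = 9.7e-05) and on the TMM scale (0.095, edgeR adjusted p = 0.03). Without BAP1 KO replicate 3 it was called higher too (0.11, edgeR adjusted p = 0.027). Tnfrsf1a, Tnfrsf10b, Casp8ap2 and Cyld were not called either, but each passed the threshold under some other setting.

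Among 5 proteins released from mitochondria, Htra2, a protease that like Diablo binds Xiap, rose from 49.0 to 52.0 CPM (0.086 ± 0.03, SE) and Septin4 by 0.20 ± 0.06. Aifm1 fell from 37.6 to 33.3 CPM (-0.18 ± 0.03), a call lost with the whole GC and length trend removed (-0.011). Endog was at 10.4 and 11.2 CPM (edgeR adjusted p = 0.12). Cycs, cytochrome c, was listed at only 0.53 and 0.57 CPM. It has near-identical copies elsewhere in the genome, and only uniquely aligning reads were counted, so its level is uncertain. The median of this list was 0.10. Htra2 lost its call with the whole GC and length trend removed (0.050) and was at -0.030 with the TMM scale kept. Of its 2946 exonic bp, 753 overlap Aup1 and 535 overlap Loxl3, both on the opposite strand.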

How the data were processed

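RNA of 8 libraries, 4 WT and 4 BAP1 KO, was grouped by the genotype in the labels. Replicate numbers were given here, in accession order within a genotype, and only name a library. Per the labels' protocols, 0.5 µg of column-purified RNA went into an unstranded TruSeq v2 library, read as single ends of 50 bp. The submitters' processing notes name GSNAP and GRCm38. For the aligner version and annotation, the sources used here give nothing. Per the file headers, the deposited count is the number of reads that align uniquely to a gene model, and the RPKM beside it is adjusted by a size factor. Symbols came from RefSeq on GRCm38.p6 (31049 of 36528 identifiers). Within each genotype, every pair of libraries differed by more than counting noise.

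The test was the robust quasi-likelihood F test of edgeR 4.0.16 in R 4.3.3, with TMM factors, filterByExpr and Benjamini-Hochberg adjustment at 0.05. Standard errors were obtained as log2 fold change over the root of F. The fit was tested on simulated data with 50 genes changed at each of 4 sizes. It recovered 42% of 1.1-fold, 74% of 1.25-fold, 76% of 1.5-fold and 96% of 2-fold changes. Of 16504 unchanged genes it called 9. A gene not called may thus have a small change that the fit missed. Alternatives used DESeq2 1.42.0, limma-voom 3.58.1, 1 surrogate variable of sva 3.50.0, other factors and filters, a 1.5-fold null, removal of GC and length trends (85.1% of tested genes have both values), and each library left out. The 8 genes and the lists were chosen with earlier results of these data known. Named were Bap1, the 8 genes, of each list up to 4 called genes with the smallest adjusted p and others where counts were small, and the 2 nearest profiles of each gene. Further list genes and the neighbours were named after their values were seen. Some genes of the lists are not reported here but remain in every count. Exon overlaps came from GENCODE vM21.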

Additional observations from a re-analysis of the deposited data

Results flagged for a closer look

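In 5 groups of 4 libraries 1 library stood apart from the other 3, with the gap to its nearest neighbour divided by the range above Dixon's critical value for 4 values. In all, 104 groups were examined and 6 passed, about as many as the 1 in 20 that chance gives. None of the 6 was of the 8 genes. For Birc7 the share was 0.894 in WT, where replicate 1 was at 7.67 CPM and the others at 8.49 to 8.59 CPM, and 0.875 in BAP1 KO, where replicate 3 was at 6.61 CPM and the others at 7.02 to 7.08 CPM. For Tnfrsf10b it was 0.895 in WT, with replicate 3 at 32.5 CPM and the others at 33.9 to 34.0 CPM. For Cradd it was 0.886 in BAP1 KO, with replicate 3 at 6.82 CPM and the others at 6.19 to 6.26 CPM. For Aven it was 0.924 in BAP1 KO, with replicate 2 at 13.1 CPM and the others at 11.9 CPM.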

How the results depend on the processing

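The estimates of the 8 genes were all smaller than 1.5-fold. In the test against 1.5-fold, 370 genes passed upward and 1014 downward, with 0 and 2 genes of the 5 lists. Of the 8 genes 0 passed in either direction (edgeR, 0 also at an unadjusted p of 0.05). Casp2 (-0.54), Casp6 (-0.43), Casp8 (-0.18), Apaf1 (-0.15) and Cflar (0.14) then had an edgeR adjusted p of 1. With the whole GC and length trend removed, 4 of the 8 genes were higher and 2 lower, 17 list genes were higher, Casp8 and Apaf1 were at -0.016 and -0.018 (edgeR adjusted p = 0.54 and 0.51), and Casp9 (0.13), Diablo (0.12) and Xiap (0.11) were called. Fewer genes, 14411, were tested there. With RLE factors, with DESeq2 and without BAP1 KO replicate 1, 2 of the 8 genes were higher, through Casp9 (0.080, 0.080 and 0.087). With each library left out in turn, 1 to 2 of the 8 genes were higher and Casp9 was at 0.043 to 0.087. The cause was not tested.

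Among list genes called in at least 1 of the fits compared, direction turned with the whole trend removed for Rock1 (0.048), Naip2 (0.052), Tnfrsf10b (0.065), Cyld (0.097), Aven (0.028) and Bfar (0.14), and on the TMM scale for Htra2 (-0.030), Endog (-0.12) and Bfar (0.060). Bfar was called higher in both forms. Genes called in neither fit also changed sign: with the whole trend removed Endog (-0.039), Naip5 (0.033) and Casp8ap2 (0.034), on the TMM scale Tnfrsf1a and Cyld, and under other settings Cycs, Cyld and Pidd1. The calls of Casp2, Casp6 and Cflar held in all alternatives but the 1.5-fold one. With each library left out, the log2 differences of the ratios, given without a test, were 0.31 to 0.35 for Cflar to Casp8, -0.25 to -0.18 for Apaf1 to Casp9 and -0.023 to 0.050 for Diablo to Xiap. With GC and length trends removed, in either form, they were 0.27, -0.14 and 0.0090. No paired analysis was possible because the labels carry no replicate numbers: those used here name libraries in accession order and pair nothing.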
